A study of Homo sapiens with 2 samples.

Results

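The genes described here encode enzymes that remove R-loops or act on the structures around them. They are RNASEH1, the RNase H2 subunit genes RNASEH2A, RNASEH2B and RNASEH2C, the helicase gene AQR, the topoisomerase genes TOP1 and TOP3B, the exonuclease gene XRN2, and SAMHD1. The 9 genes were taken by name, and every S9.6 peak with at least 1 base between 1000 bp before and 1000 bp after a gene's span was assigned to it. The 9 genes are among 19974 protein-coding genes on chromosomes 1 to 22 and X. The rule gave 19 of the 45756 peaks there, at 8 of the 9 genes.

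R-loops were profiled by CUT&Tag, in which an antibody directs a transposase to cut and tag nearby DNA. The cells were A549, an established line from a human lung cancer, of wild-type genotype and with no treatment named in the labels. There was 1 library with S9.6, an antibody against RNA-DNA hybrids, while the 1 IgG library was not analysed here, so tagging that depends on hybrids and other tagging cannot be told apart. Hence no value has a replicate, groups were not tested, and all values describe the S9.6 library. Peaks hold no expression values, so the identity of the line was not checked against marker genes. The number of reads is unknown, and the peaks were low: over all of them the maximum coverage had a median of 2. Maximum coverage is the highest coverage the peak caller recorded in a peak, and total signal is coverage summed over the bases of a peak. Coverage was read as a number of overlapping fragments, a unit that the peak list does not state.

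An R-loop forms when a transcript pairs with its template strand and displaces the other DNA strand. RNase H1 and RNase H2 cut the RNA of such hybrids. RNase H1 acts as a single protein, whereas RNase H2 needs the catalytic subunit A and the accessory subunits B and C. Aquarius, the product of AQR, is an RNA helicase bound to spliceosomes. Topoisomerase I relaxes the negative supercoils behind RNA polymerase in which hybrids form, and topoisomerase 3 beta acts on single-stranded DNA and RNA. XRN2 degrades RNA from its 5′ end after cleavage at the poly(A) site, and SAMHD1 hydrolyses dNTPs and takes part in the handling of stalled forks and nucleic acids. Mutations in the 3 RNase H2 genes and in SAMHD1 cause Aicardi-Goutières syndrome, an inborn interferon disease.

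The sequences before the starts of 5 of these genes are shown as examples of genes with and without a start peak. Capitals mark different features in these groups, so the marks cannot be compared between them. Each run is the 250 bases before the gene start, 5′ to 3′ on the gene's strand, from RefSeq on GRCh38.p14. In the 3 genes with a start peak whose region of maximum coverage falls within these bases, capitals mark that region. They are TOP1 (chr20:41028572-41028821, plus strand), AQR (chr15:34969743-34969992, minus strand) and SAMHD1 (chr20:36951709-36951958, minus strand).
TOP1: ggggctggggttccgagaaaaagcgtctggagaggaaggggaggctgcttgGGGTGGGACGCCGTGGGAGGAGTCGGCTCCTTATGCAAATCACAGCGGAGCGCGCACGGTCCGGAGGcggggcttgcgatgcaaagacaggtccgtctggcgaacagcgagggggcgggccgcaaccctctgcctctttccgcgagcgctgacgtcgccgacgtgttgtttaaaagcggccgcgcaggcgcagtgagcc
AQR: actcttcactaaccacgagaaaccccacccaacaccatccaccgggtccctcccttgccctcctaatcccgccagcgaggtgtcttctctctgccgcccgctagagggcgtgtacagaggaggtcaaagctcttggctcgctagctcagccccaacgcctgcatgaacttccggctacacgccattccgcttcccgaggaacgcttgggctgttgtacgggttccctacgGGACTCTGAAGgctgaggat
SAMHD1: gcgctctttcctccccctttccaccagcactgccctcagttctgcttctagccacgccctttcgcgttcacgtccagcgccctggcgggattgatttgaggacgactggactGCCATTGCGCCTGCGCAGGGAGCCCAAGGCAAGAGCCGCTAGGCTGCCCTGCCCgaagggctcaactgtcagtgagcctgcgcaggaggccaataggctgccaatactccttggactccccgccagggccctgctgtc
The other two, RNASEH2C (chr11:65720799-65721048, minus strand) and RNASEH2A (chr19:12806334-12806583, plus strand), had no start peak, and in them capitals mark runs of 4 or more G or C.
RNASEH2C: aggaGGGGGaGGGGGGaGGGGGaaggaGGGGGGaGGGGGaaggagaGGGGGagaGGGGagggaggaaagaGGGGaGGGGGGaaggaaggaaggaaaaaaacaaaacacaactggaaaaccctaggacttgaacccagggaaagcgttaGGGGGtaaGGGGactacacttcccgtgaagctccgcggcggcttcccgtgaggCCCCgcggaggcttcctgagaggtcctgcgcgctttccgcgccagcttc
RNASEH2A: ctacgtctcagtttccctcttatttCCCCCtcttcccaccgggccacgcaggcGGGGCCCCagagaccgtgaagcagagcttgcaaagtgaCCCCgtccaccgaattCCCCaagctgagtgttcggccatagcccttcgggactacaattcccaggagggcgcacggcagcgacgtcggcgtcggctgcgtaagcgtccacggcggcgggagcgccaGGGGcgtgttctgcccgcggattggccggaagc

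S9.6 peaks were listed over 8 of the 9 genes, where 60.4% of protein-coding genes had a peak over the same kind of window. A peak within 1000 bp of either end of the span was found for 7 of 9, against 40.1% of protein-coding genes. The strand of each gene, taken from the RefSeq promoter table, separated starts from ends. A start peak was present at TOP1, AQR, XRN2, RNASEH2B and SAMHD1, 5 of 9 genes, against 36% of the 15812 protein-coding genes whose start was in that table. None of these 15812 genes was on chromosome 8, so all shares over starts and promoters leave that chromosome out. A peak at the end that was not also at the start lay at RNASEH2C and TOP3B, 2 of 9 genes, against 10.6%. That share includes genes that also had a separate start peak. Peaks inside the span, away from both ends, were found in RNASEH1, AQR, TOP1, TOP3B and SAMHD1, 5 of 9 genes, against 38.7%. Both window and inside shares depend on gene length. From the shortest to the longest of 5 groups of protein-coding genes they rose from 39.0% to 78.0% and from 6.02% to 67.5%. AQR, TOP1 and XRN2 fall in the longest group, and RNASEH2B and SAMHD1 in the next (68.2% and 48.3%). RNASEH1 had inside peaks alone, and RNASEH2A had no peak of any kind.

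**Figure D1:**
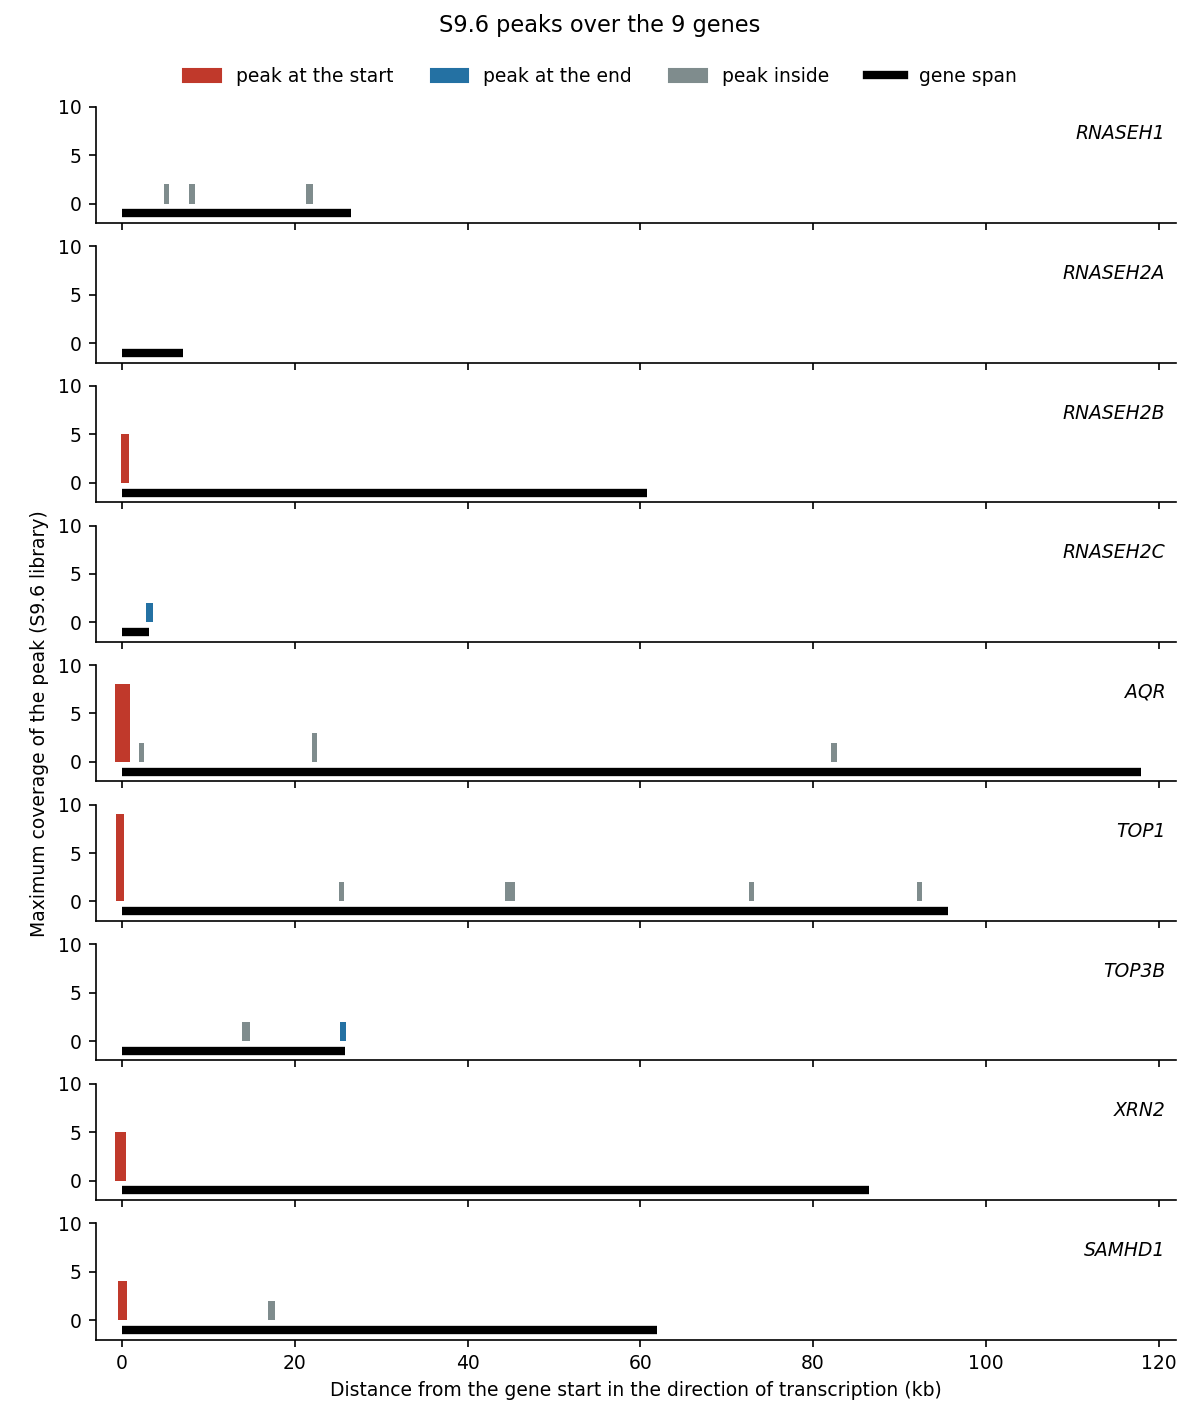
S9.6 peaks over the 9 genes, drawn from the gene start (0) in the direction of transcription in kb; bar height is the maximum coverage of a peak, bar width its length, and the black line the gene span. The 5 start peaks reach 4 to 9, and the other 14 peaks reach 2 or 3.

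The split by position was also a split by height. The 5 start peaks had maximum coverages of 9 (TOP1), 8 (AQR), 5 (XRN2), 5 (RNASEH2B) and 4 (SAMHD1). Each of the 2 end peaks had 2. Of the 12 peaks inside genes 11 had 2 and the remaining peak, in AQR, had 3. No start peak of these genes was as low as their highest inside peak. The same order held among protein-coding genes in general, with a median maximum coverage of 4 over 5502 start peaks, 3 over 1691 end peaks and 2 over 16022 inside peaks. A maximum of 4 or more was reached by 53.2% of start peaks and 12.8% of inside peaks in that background. Counted per gene, a start peak of at least 4 was present at 5 of the 9 genes and at 21% of protein-coding genes.

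**Figure D2:**
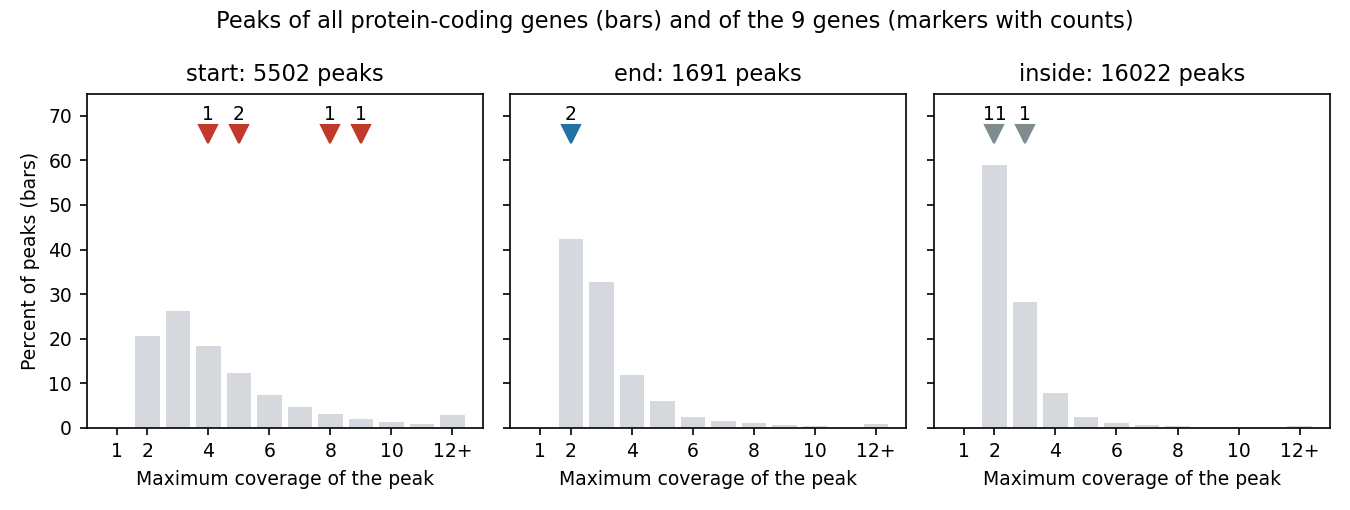
Maximum coverage of peaks at the start, at the end and inside of protein-coding genes (grey bars, percent of peaks in that position, with 12+ for 12 or more), and of the 9 genes (triangles, with the number of peaks above). The triangles for start peaks stand at 4 to 9 and those for inside peaks at 2 and 3.

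The tallest peak belonged to TOP1 (gene ID 7150), which encodes topoisomerase I, on chromosome 20 from 41028822 to 41124487 on the plus strand. Its start peak ran from 41028094 to 41029090, 997 bp with a total signal of 2669 and a maximum of 9. Of all peaks, 1.89% were as high in maximum coverage and 5.07% in total signal. Among protein-coding genes with a start peak, 8.47% had one as high. The peak lay mostly ahead of the gene: 73.0% of its bases were upstream of the start, and its region of maximum coverage, the 67 capital bases printed above, covered 133 to 199 bp before the start. The nearest other gene, the lncRNA LOC100128988, ended 2698 bp before the peak.

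TOP1 also carried 4 peaks inside its span, more than any other of the 9 genes. Their summits lay 25.5, 45.0, 73.0 and 92.3 kb after the start and all had a maximum of 2, with total signals of 874, 1180, 823 and 947. The last of these, from 41120805 to 41121388, and the one before it also lie within PLCG1-AS1, a lncRNA on the opposite strand. A peak list without strand does not separate the genes. The 5 peaks of TOP1 compare with a mean of 3.10 peaks among the 3995 longest protein-coding genes, those of at least 83651 bp.

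AQR (gene ID 9716), on chromosome 15 from 34851782 to 34969742 on the minus strand, is the longest of the 9 genes. Its start peak, from 34968791 to 34970499, was the widest of the 19, at 1709 bp, and had the highest total signal, 4664, with a maximum of 8. Of all peaks, 1.55% had a total signal as high and 2.61% a maximum as high. The peak extended from 757 bp before to 951 bp after the start, and its maximum lay in an 11 bp region 10 to 20 bp before the start. ZNF770, the nearest other gene, lay 7842 bp away and had its own peak, of maximum 6, over its start. A start peak of 8 or more, as in TOP1 and AQR, was present at 2 of the 9 genes and at 4.34% of protein-coding genes.

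Inside AQR, 3 peaks had summits 2.28, 22.4 and 82.3 kb after the start, with maxima of 2, 3 and 2 and total signals of 774, 971 and 747. The peak of maximum 3 lay 3674 bp from RPL36AP8, a ribosomal protein pseudogene inside the AQR span. The lowest of the 3 totals, 747, is near the bottom of the list, since 99.4% of all peaks were as high.

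XRN2 (gene ID 22803), the nuclear 5′ to 3′ exonuclease gene on chromosome 20 from 21303331 to 21389825 on the plus strand, had its start peak and no other. The peak ran from 21302554 to 21303767, 1214 bp, with a total signal of 2286 and a maximum of 5. Of its bases 64.0% were upstream of the start, but the maximum lay downstream, 191 to 368 bp into the gene. RefSeq lists another start 167 bp into the span, and the summit, the middle of the maximum region, lay 112 bp past it. The nearest other gene, the pseudogene ZNF877P, was 36130 bp from the peak. The rest of the 86495 bp span held no peak, whereas 67.5% of protein-coding genes in this group of longest genes had a peak inside, away from both ends.

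SAMHD1 (gene ID 25939), on chromosome 20 from 36889773 to 36951708 on the minus strand, had a start peak from 36951088 to 36952158, 1071 bp with a total signal of 2018 and a maximum of 4. The maximum region, the 54 capital bases printed above, lay 85 to 138 bp before the start. Among protein-coding genes with a start peak, 58.4% had one as high, which places this peak in the middle of that range. A further peak of maximum 2, from 36934021 to 36934752, lay 17.3 kb into the gene by its summit. No other gene was within 39786 bp of that peak or within 44191 bp of the start peak.

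**Figure D3:**
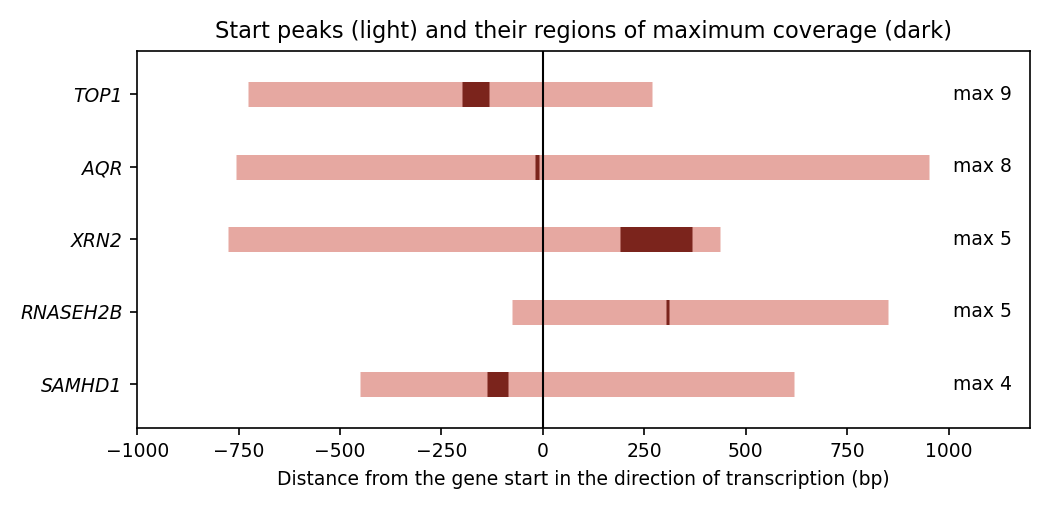
The 5 start peaks relative to the gene start (0, vertical line) in bp in the direction of transcription, with the whole peak in light red and its region of maximum coverage in dark red; the maximum coverage is written at the right. Every peak spans the start, with the maximum before it at TOP1, AQR and SAMHD1 and after it at XRN2 and RNASEH2B.

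All 5 start peaks covered the annotated start base, and their summits fell on both sides of it. They lay 166 bp before the start at TOP1, 111 bp before it at SAMHD1 and 15 bp before it at AQR. They lay 279 bp after it at XRN2 and 308 bp after it at RNASEH2B, the genes among these 5 for which RefSeq lists more than 1 start. In the background of 5690 protein-coding genes with a start peak, 53.4% had the summit of the strongest peak upstream and the median offset was 31.5 bp before the start.

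Of the 4 RNase H genes RNASEH2B alone had a start peak, while 4 of the other 5 genes did, against 36% of protein-coding genes. A count of 1 in 4 is close to that share. These are groups of 4 and 5 genes in 1 library, and the difference between them was not tested. RNASEH2B (gene ID 79621), on chromosome 13 from 50909678 to 50970460 on the plus strand, encodes an accessory subunit of RNase H2. Its peak, from 50909601 to 50910529, was 929 bp wide with a total signal of 1864 and a maximum of 5. Only 8.29% of the peak lay upstream of the start, and the whole of it overlapped RNASEH2B-AS1, a lncRNA on the opposite strand whose start lies 1034 bp from that of RNASEH2B. Signal from the pair of opposed transcripts cannot be told apart here. The peak stood alone: the nearest others lay 202360 bp upstream of the gene and 95394 bp past its end, and it was the only peak within 100 kb of the start. Protein-coding genes had a median of 4 peaks in that distance.

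RNASEH2C (gene ID 84153), the shortest of the 9 genes, encodes the other accessory subunit and lies on chromosome 11 from 65717673 to 65720798 on the minus strand. Its peak, from 65717238 to 65717981, was 744 bp wide with a total signal of 935 and a maximum of 2. It covered the end of the gene and not its start, from 308 bp before the end to 435 bp past it. The same bases lie inside KAT5, an acetyltransferase gene on the plus strand whose span overlaps the end of RNASEH2C, so the peak counts for both. KAT5 had a taller peak at its own start, from 65711779 to 65712732, with a maximum of 4 and a total signal of 2393. That peak lay 4941 bp past the end of RNASEH2C.

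RNASEH2A (gene ID 10535) encodes the catalytic subunit and lies on chromosome 19 from 12806584 to 12813640 on the plus strand. It was the only one of the 9 genes with no peak. Among the 3996 protein-coding genes in its range of length, 6490 to 16369 bp, 55.5% had a peak over the window. The surroundings were not empty: 18 peaks lay within 100 kb of its start, more than at the starts of 89.9% of protein-coding genes. The nearest peaks were 12659 bp upstream and 7494 bp past the end. Upstream, a peak of 2660 bp with a maximum of 6 and a total signal of 7189 covered the start of JUNB, an immediate early gene, and the start of its neighbour HOOK2. PRDX2 and THSD8, the genes between JUNB and RNASEH2A, had no peak either, so the gap extends over 3 genes. A gene without a listed peak can still have signal under the authors' threshold.

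RNASEH1 (gene ID 246243), the gene of the single-protein RNase H on chromosome 2 from 3531813 to 3558333 on the minus strand, had 3 peaks, all inside. They ran from 3552860 to 3553479, from 3549911 to 3550581 and from 3536245 to 3536983, with total signals of 872, 869 and 760 and a maximum of 2 each. The closest to the start began 4854 bp into the gene. Neither the start of RNASEH1 nor that of RNASEH1-DT, a lncRNA that begins 53 bp away and runs in the opposite direction, had a peak within 1000 bp. Just outside the window, 3644 bp past the end, lay a narrow peak of 471 bp with a maximum of 5, taller than any peak within RNASEH1.

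TOP3B (gene ID 8940), on chromosome 22 from 21957025 to 21982787 on the minus strand, had 2 low peaks and none at its start. One, from 21956885 to 21957538, covered the end of the gene with a total signal of 785 and a maximum of 2. The other, from 21967975 to 21968832, lay 14.4 kb into the gene with a total signal of 887 and the same maximum. The nearest other gene to both was PPM1F, 4037 bp from the end peak. The 2 topoisomerase genes thus differed in their listed peaks, with a start peak of 9 at TOP1 and none at TOP3B.

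Across the 19 peaks, mean coverage over the peak followed the same division. It was 2.73 at the AQR start, 2.68 at the TOP1 start, 2.01 at RNASEH2B and 1.88 at both XRN2 and SAMHD1. Over the other 14 peaks it ranged from 1.03 to 1.65. The 4 start peaks of AQR, TOP1, XRN2 and SAMHD1 were among the 4575 peaks with highest total signal, and no other peak of these genes was. Beyond the 1000 bp limit, the peaks closest to a span lay 2513 bp upstream of SAMHD1 (maximum 2), 3644 bp past RNASEH1 (5) and 4941 bp past RNASEH2C (4). Within it, the peaks that reached furthest outside a span were those at the starts of XRN2 (777 bp), AQR (757 bp) and TOP1 (728 bp).

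Promoter composition was compared next, since G-rich and CpG-rich starts are known sites of R-loops. Over the 300 bases from 250 before to 50 after the start, start peaks were present at 11.1% of the 3085 protein-coding genes with the lowest GC content (95% Wilson interval 10.0 to 12.2) and at 49.9% of the 3320 in the fourth of 5 groups (48.2 to 51.6). These intervals cover counting error over genes only. GC content did not order the 9 genes by their peaks. RNASEH2B had the lowest, 55.0%, with a start peak of 5, and RNASEH1 and RNASEH2A had 70.3% and 67.7% with none. TOP1 had 64.7%, AQR 61.7%, SAMHD1 65.7% and XRN2 72.0%. RNASEH2C had 64.3% and TOP3B 62.3%, without a start peak. The ranges of GC content of genes with and without a start peak overlapped. Span length did separate them: 60783 to 117961 bp with a start peak and 3126 to 26521 bp without. Among protein-coding genes in 5 groups by length, the share with a start peak was between 31.9% and 39.1%. The relation of length to start peaks in the 9 genes was not tested.

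**Figure D4:**
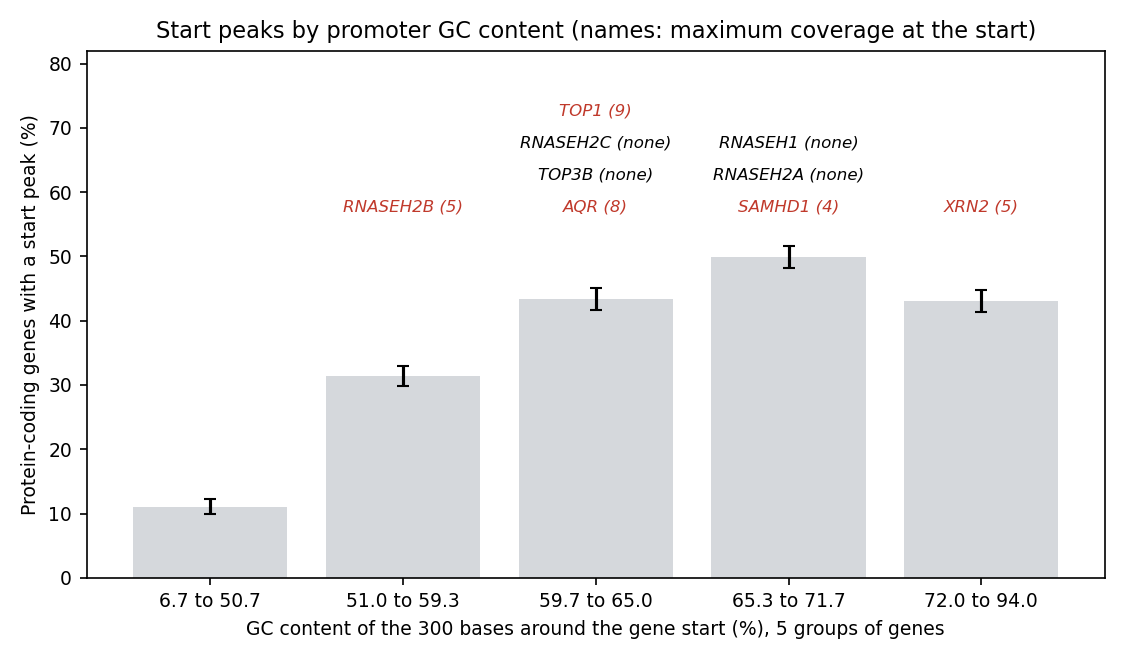
Percent of protein-coding genes with a start peak in 5 groups by GC content of the 300 bases around the start (bars, with 95% Wilson intervals); names show the group of each of the 9 genes, with the maximum coverage of its start peak in red or none in black. The bars rise from 11.1% to 49.9% and stand at 43.0% in the last group, and genes with and without a start peak share 2 of the groups.

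The excess of G over C on the strand shown, (G − C)/(G + C) over the 300 bases, did not follow the peaks either. It was highest at RNASEH2C, 0.40, above 99.3% of protein-coding genes, yet no start peak was listed there. The sequence printed above holds 11 runs of 4 or more G, up to 6 long, most of them far from the start. TOP1 came next with 0.19 and 6 such runs in its 250 bases. TOP3B, without a start peak, had 0.11. The other 6 genes had negative values, from -0.06 at RNASEH2A to -0.19 at XRN2, and among them AQR, XRN2, RNASEH2B and SAMHD1 had start peaks. The 300 bases include only 50 after the start, and the regions of maximum coverage at XRN2 and RNASEH2B lay past them. Skew further into the genes was not measured.

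Short motifs were searched on both strands of the same 300 bases. GGGG was found in all 9 sequences and in 93.7% of promoters of protein-coding genes. The GC box GGGCGG was found at RNASEH1 (4 matches), TOP1, AQR and TOP3B, and in 58.3% of promoters. GGGG and GGGCGG can share bases. CCAAT was found at RNASEH2B and SAMHD1 (2 matches each) and RNASEH2A, against 36.4% of promoters. CCGGAAGT, an ETS factor motif, was found at AQR alone, against 6.17%. TATAAA (9.75% of promoters), AAGATGGC (3.86%) and the exact palindromic form of the NRF1 motif (1.77%) were found at none of the 9. Other forms of the NRF1 motif were not searched, so its absence was not shown. Near matches to the palindrome occur in the printed sequences of TOP1 and SAMHD1, and their share among promoters was not measured. No motif in this search was present at all 5 genes with a start peak and absent from the other 4.

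Other genes of R-loop metabolism were described from lists of helicases, topoisomerases, nucleases and repair enzymes, mRNP assembly factors, Aicardi-Goutières genes and direct partners of the 9 proteins. Of 58 symbols 57 were found in the gene table, and these lists were chosen with earlier results of these data known, so their counts are no independent support. A boundary peak was present at 36 of the 57 genes (63.2%), against 40.1% of protein-coding genes. One of 4 or more was present at 19 of the 57, against 21.9%. Among the 48 genes with a known start, 30 had a start peak (62.5%), against 36% of protein-coding genes.

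**Figure D5:**
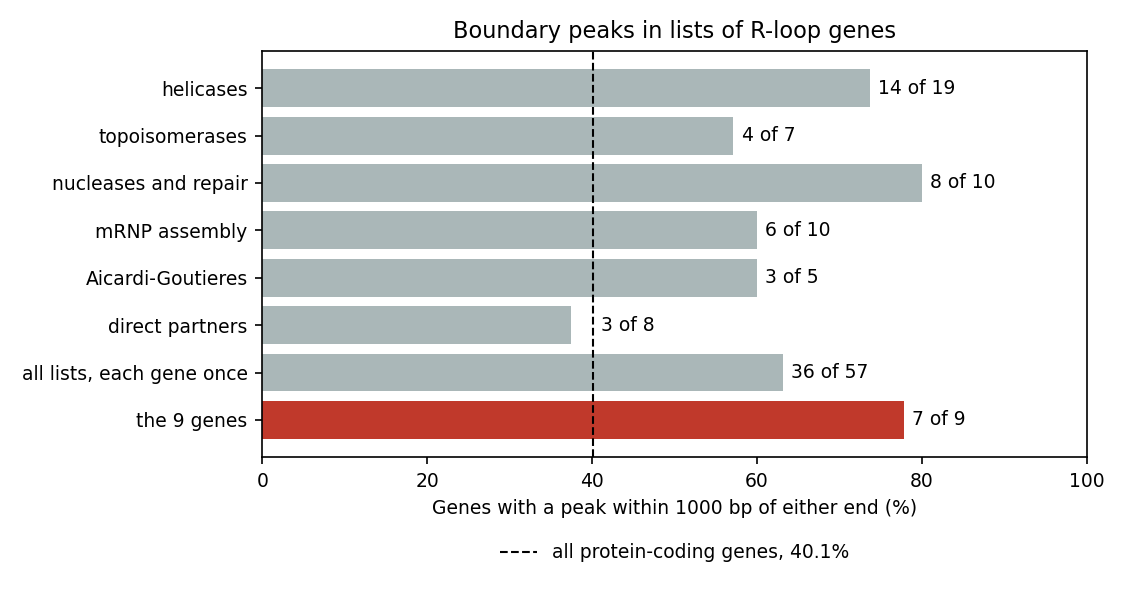
Percent of genes with a peak within 1000 bp of either end of the span, for 6 lists of R-loop genes, for their union and for the 9 genes (red), with counts beside the bars. The dashed line marks the 40.1% of all protein-coding genes, and 7 of the 9 genes compare with 36 of 57 other genes.

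Helicases had a boundary peak at 14 of 19 genes, against 40.1% of protein-coding genes. The highest were DDX5 and BLM (8 each), followed by DDX17 (6), DHX9, DDX1 and RTEL1 (5 each) and DDX23 (4). No peak was listed over DDX39B or WRN. Some of these peaks overlap a neighbour, as DDX5 does with CEP95.

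The next list held topoisomerases, tyrosyl-DNA phosphodiesterases and TDRD3, the partner of topoisomerase 3 beta. Of its genes 4 of 7 had a boundary peak, against 40.1% of protein-coding genes, led by TOP2A (5) and TDRD3 (4). TOP2B and TOP3A had no peak, as the start of TOP3B had none. Nucleases and repair genes had a boundary peak at 8 of 10, against the same 40.1%. It reached 7 at ERCC4, 5 at the flap endonuclease gene FEN1 and 4 at ERCC6 and DIS3. ERCC5 and MRE11 had none. The peaks counted for ERCC4, FEN1 and DIS3 also overlapped other genes, TMEM258 among them at FEN1 and PIBF1 at DIS3. XRN1, the cytoplasmic relative of XRN2, had a start peak of 2 where XRN2 had 5.

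Genes of mRNP assembly had a boundary peak at 6 of 10, against 40.1% of protein-coding genes. The peak of 14 at THOC6 was 4497 bp wide and also overlapped HCFC1R1 and TNFRSF12A, and that of 7 counted for ALYREF lay outside its span and over ANAPC11. SRSF2 had 8, from a peak that also overlapped MFSD11, and THOC5 had 4, whereas THOC1, THOC2 and THOC3 had no peak. Of the Aicardi-Goutières genes outside the 9, the exonuclease gene TREX1 had 3, from a peak also over ATRIP, and ADAR had 2. RNU7-1, a small nuclear RNA gene, had 10 from a peak that lies outside it and over C12orf57. IFIH1 and LSM11 had none.

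Direct partners had a boundary peak at 3 of 8 genes: TDRD3 and the XRN2 partner CDKN2AIP (4 each) and the AQR partner XAB2 (2). This count of 37.5% is close to the 40.1% of all protein-coding genes. No peak was listed at FMR1, ISY1, PPIE, ZNF830 or NKRF. TREX1 and TDRD3 each stand in 2 lists and were counted once in the union.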

How the data were processed

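The S9.6 peak list was analysed. Its values are the authors' total signal and maximum coverage per peak, deposited as unscaled whole numbers and read from the layout of SEACR; in no peak did the total exceed width times maximum. Tools in the submitters' processing notes include SEACR 1.3, Bowtie2 2.4.2 and fastp 0.23.2, with build GRCh38 and no order or roles. Not given in the sources used here: threshold, use of IgG as control, and handling of duplicates.

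Gene spans came from RefSeq on GRCh38.p14, and starts, strand and sequence from its promoter table, in which all 9 genes were matched. Exon positions were not used. A peak counted with at least 1 base in a window of 1000 bp; overlap counting was tested on simulated peaks. A peak at a start was called a start peak, of the remainder one at an end an end peak, and the rest inside. Python 3.11.15, pandas 2.3.3 and scipy 1.17.1 were used. Genes and lists were chosen with earlier results of these data known. All 9 genes are named; of other lists, genes with a boundary peak of 4 or more, the first 3 without a peak in alphabetical order, and all partners. With 1 library no test was made. Alternatives varied window, summit, peak height and gene class.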

Additional observations from a re-analysis of the deposited data

How the results depend on the processing

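Peak height and window size both moved the counts. With peaks of maximum coverage 3 or more, and with the 22878 peaks of highest total signal, 5 of the 9 genes had a peak over the window and 5 had a boundary peak in each case, and 6 peaks were left of 19. The background fell to 44.6% and 45.5% over windows, and to 32.2% and 30.4% at boundaries. With the 4575 peaks of highest total signal, 4 of the 9 genes had a peak over the window, 4 had a boundary peak and 4 peaks were left. The background was then 16.9% over windows and 13.2% at boundaries. Of the 57 other R-loop genes 11 had a peak over the window and 9 a boundary peak, both close to the background at this setting. With windows of 500 bp the background was 59.3% over windows and 35.3% at boundaries, with summits 59.6% and 36.7%, with 5000 bp 65.7% and 55.1%, and without chromosome 6 61.9% and 41.4%. At 5000 bp, 8 of the 9 genes in place of 7 had a boundary peak, with RNASEH1 added, and the peaks numbered 22 in place of 19. With that window 40 of the 57 other R-loop genes in place of 36 had a boundary peak. With 500 bp, with summits and with the span alone, 8 of the 9 genes had a peak over the window, as in the report. At 5000 bp the strongest peak was 5 at RNASEH1 and 4 at RNASEH2C, and the median over the 9 genes was 5 in place of 4. The median distance from a peak to the nearest other gene was 7842 bp, and 30634 bp with protein-coding genes only. No paired analysis was possible because there is 1 library per antibody and no test. The number of reads is unknown, and no interval was given for a maximum coverage.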

Other observations

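The gene table holds 6 pseudogenes named after 3 of the 9 genes. No peak was listed over RNASEH1P1, RNASEH1P2, RNASEH1P3, TOP1P1 or TOP1P2. TOP3BP1, on chromosome 22 from 22223186 to 22223665, had 1 peak with a maximum coverage of 3, above the maximum of 2 of both peaks over TOP3B. The pseudogenes were taken by name, and their sequence identity to the 9 genes was not measured.

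Of the 9 genes, 3 lie on chromosome 20, TOP1, XRN2 and SAMHD1, and each had a start peak. On that chromosome 46.6% of 384 protein-coding genes had one. The number of peaks within 100 kb of the start ranged from 1 at RNASEH2B to 18 at RNASEH2A. RNASEH2C had 17, RNASEH1 12, SAMHD1 10, TOP3B 9, TOP1 8, and AQR and XRN2 5 each. Genes with a start peak thus had 1 to 10 and those without had 9 to 18, ranges that overlapped only at SAMHD1 and TOP3B. This relation was not tested.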
